A study of Mus musculus with 2 samples.

Results

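Parvalbumin (*Pvalb*), calbindin 1 (*Calb1*) and calretinin (*Calb2*) are 3 genes of calcium-binding proteins, chosen by name out of 25556 genes in the count matrix. All 3 were measured in both libraries. Nuclei came from the dissected brainstem of female C57Bl6 mice (C57BL/6J in the study's methods) at postnatal day 41. One library was made from wildtype (WT) tissue, taken from littermates of the mutants, and 1 from heterozygous *Scn1a*A1783V/WT (HET) tissue carrying the *Scn1a* A1783V knock-in allele, a missense, loss-of-function change in the sodium channel Nav1.1 that models Dravet syndrome. The allele was produced by crossing a male with floxed *Scn1a* to a Sox2-Cre female, and as Sox2-Cre acts in the early embryo the allele is present throughout the body. No animal was treated. Because there was 1 library per genotype, genotypes were not tested against each other, and a difference between the genotypes cannot be told apart from a difference between 2 animals, dissections or library preparations. Every interval below is an exact 95% interval that covers counting error only.

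The WT library held 9259 nuclei with 70301390 UMIs (unique molecular identifiers, each a counted RNA molecule) and the HET library 9022 nuclei with 66176778 UMIs. The deposited annotation placed 6118 WT and 5393 HET nuclei in the clusters neuron.1 to neuron.9. The median nucleus had 5456 UMIs in WT and 5646 in HET, and 23 cell barcodes occurred in both libraries. Levels are given as CPM, the UMIs of a gene per 1000000 UMIs. *Scn1a* was at 380 CPM in WT and 420 CPM in HET, which is no check of a missense allele.

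These genes encode small cytosolic proteins of the EF-hand family, which bind calcium ions in a short loop held between a pair of helices and so shape the calcium signal that follows an action potential. Parvalbumin is best known from fast-firing interneurons and from many auditory and vestibular relay neurons of the brainstem. Calbindin is abundant in Purkinje cells and in neurons of the inferior olive, and calretinin in unipolar brush cells, in cerebellar granule cells and in several cochlear and brainstem neurons. In cortex the 3 proteins divide interneurons into largely separate classes, and co-detection in single brainstem nuclei bears on that division.

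*Pvalb* (ENSMUSG00000005716.16) lies on the minus strand at chr15:78191114-78206400 of GRCm38, with 4 exons in its longest coding transcript. *Calb1* (ENSMUSG00000028222.2) lies on the plus strand at chr4:15881264-15908064 with 11 exons, and *Calb2* (ENSMUSG00000003657.9) on the minus strand at chr8:110137502-110168210 with 11 exons. No other GENCODE vM21 gene overlaps any of these loci on either strand. A scan of the translated coding sequences for the canonical loop (Asp at position 1, Asp, Asn or Ser at position 3, Gly at position 6, and Glu or Asp at position 12 of 12) found 2 loops in *Pvalb*, 4 in *Calb1* and 5 in *Calb2*. The coding bases of the loops are shown for the most alike pairs between genes, because reads of such relatives could be confused, with the codons of calcium-coordinating positions 1, 3, 5, 7, 9 and 12 in capitals:
Pvalb loop 1, exon 2, chr15:78202526-78202561: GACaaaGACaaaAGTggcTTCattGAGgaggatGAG
Calb2 loop 3, exon 5, chr8:110149362-110149397: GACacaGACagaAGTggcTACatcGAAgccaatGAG
Calb1 loop 1, exons 1 and 2, chr4:15881468-15881983: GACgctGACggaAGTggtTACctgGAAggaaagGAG
Calb2 loop 1, exons 1 and 2, chr8:110156971-110168053: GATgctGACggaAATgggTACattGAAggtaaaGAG
The span of each of the last 2 includes the intron that interrupts the loop. *Pvalb* loop 1 matched *Calb2* loop 3 at 28 of 36 bases, and *Calb1* loop 1 matched *Calb2* loop 1 at 29 of 36 bases. Over whole transcripts, the longest run of identical bases was 11 between *Pvalb* and either relative and 12 between *Calb1* and *Calb2*. The 3 genes are therefore separate sequences at any usual read length, and their counts can be read one by one.

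All 3 genes were sparse. *Pvalb* was found in 1924 of 11511 neuronal nuclei, 79.6% of which held a single UMI, and no nucleus held more than 10. *Calb1* was found in fewer neuronal nuclei, 1256, but 273 of them had at least 3 UMIs and the highest had 31. *Calb2* was found in 1168 neuronal nuclei, of which 71 had at least 3 UMIs, with a highest value of 13. Nuclei with at least 3 UMIs held 54.7% of the neuronal *Calb1* UMIs, but 13.2% of those of *Pvalb* and 19.3% of those of *Calb2*. Thus *Calb1* was concentrated in a small set of nuclei, whereas most *Pvalb* and *Calb2* UMIs were spread one at a time.

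How much of that spread came from the nuclei themselves was read against oligodendrocytes, astrocytes, microglia and endothelial cells, glial and vascular types that should lack these genes. There were 5736 such nuclei for which the cluster and the separate cell-type label of the deposited annotation agreed. *Calb1* was at 10.7 CPM in them (9.28 to 12.3) and at 23.4 in neuronal nuclei (22.5 to 24.3). *Calb2* was at 11.6 (10.2 to 13.3) and 13.9 (13.2 to 14.6). *Pvalb* was at 25.4 in the non-neuronal nuclei (23.2 to 27.8), above the 21.8 of neuronal nuclei (20.9 to 22.7). When each nucleus was thinned to 1000 UMIs, the share with a *Pvalb* UMI was 2.36% in neuronal and 2.95% in non-neuronal nuclei. The corresponding shares were 2.36% and 1.16% for *Calb1*, and 1.55% and 1.34% for *Calb2*. Unthinned, a *Pvalb* UMI was found in 16.7% of neuronal nuclei (median depth 8055 UMIs) and 7.90% of non-neuronal nuclei (median depth 2835), a *Calb1* UMI in 10.9% and 3.35%, and a *Calb2* UMI in 10.1% and 3.77%. The pan-neuronal genes *Rbfox3* and *Snap25* were at 10.7% and 20.6% of their neuronal level in the same non-neuronal nuclei. The transmitter genes *Slc6a5*, *Gad2*, *Slc17a6* and *Slc32a1* were at 22.1%, 28.0%, 53.6% and 78.7%. *Calb1*, *Calb2* and *Pvalb* were at 45.8%, 83.7% and 117%. Per UMI, *Pvalb* in the neurons as a whole was thus not above its non-neuronal level, and the 2 *Calb2* intervals overlapped. Neuronal nuclei held 0.213 *Pvalb* and 0.136 *Calb2* UMIs each, against 0.0846 and 0.0387 in the shallower non-neuronal nuclei. Both readings per UMI depended on oligodendrocyte subcluster 8, which was mostly WT. Without it 4884 non-neuronal nuclei remained, with *Pvalb* at 22.7 CPM (20.5 to 25.1), an interval that overlaps the neuronal one. *Calb2* was then at 10.7 (9.16 to 12.3), below the neuronal interval. In neuron.6, neuron.7 and neuron.8 *Pvalb* was at 10.5, 7.81 and 3.90 CPM, below the non-neuronal level. How background changes with depth was not tested, and single UMIs of *Pvalb* or *Calb2* could not be told apart from it. At least 3 UMIs were found in 93 neuronal and 2 non-neuronal nuclei for *Pvalb*, in 273 and 0 for *Calb1*, where 0 of 5736 allows up to 0.0643%, and in 71 and 2 for *Calb2*. These counts are not adjusted for depth, and the 86 nuclei that passed for *Pvalb* alone had a median of 16174 UMIs. For *Pvalb* the level per UMI and the thinned share were both lower in neuronal nuclei than in the 5736 non-neuronal nuclei. The part of depth in its count was not tested.

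*Calb1* differed strongly between the 16 deposited clusters. It was highest in neuron.6, at 267 CPM (243 to 293), followed by neuron.3 at 85.8 and neuron.2 at 76.2, whose intervals overlap. Neuron.6 was separate from both. It carried the transcription factor genes *Foxp2* at 2246 and *Pou4f1* at 148 CPM, which mark inferior olive neurons, but *Cdh8* and *Htr2b* of the same list were not above the remaining nuclei, and the cluster is left unnamed. Of its 125 nuclei, 70 had at least 3 *Calb1* UMIs. The glycinergic subcluster 13 of neuron.3, in which the glycine transporter gene *Slc6a5* reached 221 CPM, held *Calb1* at 101. The glutamatergic subcluster 12 of neuron.2, with *Slc17a6* at 139, held it at 109. *Calb1* was not detected in 53 nuclei of the cholinergic neuron.8 (0 of 1539695 UMIs, upper bound 2.40 CPM). It lay at 2.93 in neuron.4, below the non-neuronal level. The ependymal cluster epend.1, which expressed the ciliary gene *Dnah12*, held *Calb1* at 55.2 CPM, from 36 UMIs, and 4 of its nuclei had at least 3.

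The groups with high *Pvalb* were of mixed transmitter type. Leaving aside neuron.9, which is described separately, 5 of 32 combinations of cluster and subcluster with at least 50 nuclei had an interval wholly above that of the non-neuronal nuclei, 3 of them in neuronal clusters and 1 in oligodendrocytes. The highest was subcluster 18 inside the cluster named micro, at 86.8 CPM (72.6 to 103). All of its 185 nuclei had the cell-type label Neurons, and it carried *Meg3* at 11546 and the vesicular glutamate transporter gene *Slc17a6* at 171 CPM. The microglial genes *Csf1r* and *Cx3cr1* were at 1.97 and 19.7 in it. The other 220 nuclei of the micro cluster held 23 *Pvalb* UMIs, near the background level. Next came subclusters 13 and 27 of neuron.3, at 56.8 and 55.9, whose intervals overlap. The former was glycinergic, whereas the latter had *Slc17a6* at 131 and *Slc6a5* at 5.28, and held 13 WT and 100 HET nuclei. Subcluster 24 of neuron.1, at 51.4, was inhibitory, with *Slc6a5* at 163 and the GABA-synthesising enzyme gene *Gad2* at 137. *Pvalb* in neuron.1 as a whole, 9111 nuclei, was at 18.8 and in oligodendrocytes at 24.9.

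*Calb2* was high in small groups of nuclei. Subcluster 33 of neuron.5 held it at 187 CPM (125 to 268). These 43 nuclei also carried *Lmx1a* at 612 and *Eomes* at 168, all 4 of the unipolar brush cell markers used were above their level in the remaining nuclei, and the group is unipolar brush cell-like. Subcluster 15 of the same cluster was granule cell-like, with *Gabra6* at 459, *Cbln3* at 79.6 and *Neurod1* at 73.3 CPM, and held *Calb2* at 28.3 (18.6 to 41.1). Neuron.6 held *Calb2* at 48.6 as well as its high *Calb1*, and subcluster 12 of neuron.2 at 25.5. *Calb2* in neuron.1 was at 12.9 and in neuron.3 at 8.66, and both intervals overlap that of the non-neuronal nuclei.

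The highest values of both *Pvalb* and *Calb2* were in neuron.9, with 711 and 302 CPM, but this cluster had 37 nuclei, 35 of them WT, with a median of 2034 UMIs. Its median share of UMIs from ribosomal protein genes was 11.1%, against 0.441% in all neuronal nuclei, and its *Meg3*, a pan-neuronal RNA, was at 1639 CPM. Of these nuclei, 10 had at least 3 *Pvalb* UMIs. The part of this composition in the 2 values was not tested. The whole-library ratios are given with and without subcluster 21, to which these nuclei belong together with nuclei of neuron.1 and neuron.5.

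**Figure D1:**
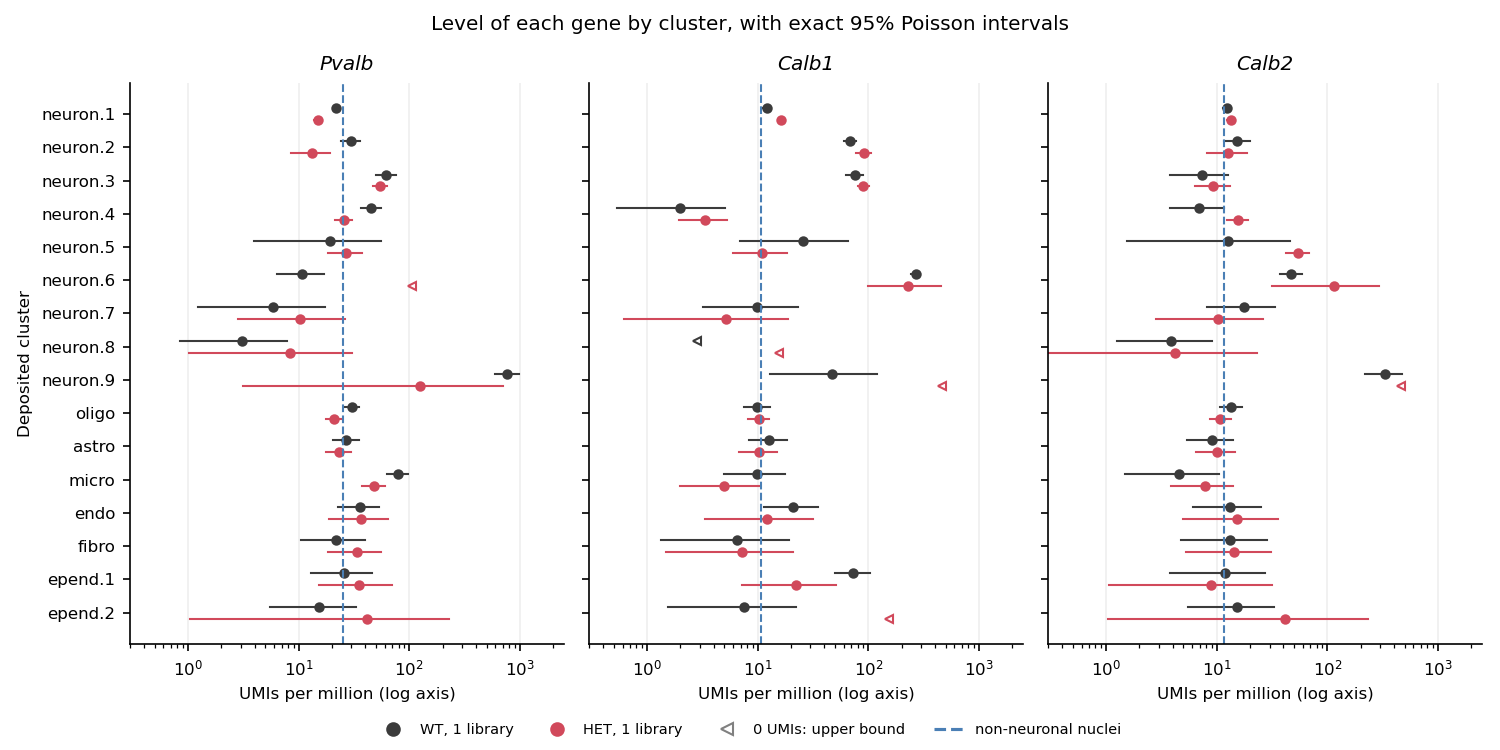
Level of each gene (CPM, log axis) in each deposited cluster of the WT and HET library, with exact 95% Poisson intervals; open triangles give the upper bound where no UMI was found, and the dashed line is the level in 5736 non-neuronal nuclei of both libraries. *Calb1* in WT neuron.6 (268) stood well above that line (10.7), whereas *Pvalb* in neuron.1 (21.9 in WT, 15.01 in HET) lay below its line (25.4).

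*Pvalb* was lower in the HET library. It fell from 1828 UMIs in WT to 1326 in HET, or from 26.0 to 20.04 CPM, a log2 ratio of -0.38 (-0.48 to -0.27). *Calb1* went from 1571 to 1334 UMIs, or from 22.3 to 20.2 CPM, a log2 ratio of -0.15 (-0.26 to -0.04). *Calb2* had 928 and 903 UMIs, or 13.2 and 13.6 CPM, a log2 ratio of 0.05 (-0.09 to 0.18) that lay within counting error. None of the 3 reached a 1.5-fold change, which 12.7% of 16347 genes with at least 200 UMIs reached downwards in HET and 6.29% upwards. The median log2 ratio of these genes was -0.10, and relative to it *Pvalb* was at -0.27. Of the 16347 genes, 24.7% had a lower ratio than *Pvalb*. Subcluster 21, with 56 WT and 70 HET nuclei, held 73 and 9 *Pvalb* UMIs and 40 and 18 *Calb2* UMIs. Its WT nuclei were mostly of neuron.9 (35 nuclei, 65 *Pvalb* UMIs) and its HET nuclei mostly of neuron.5 (46 nuclei, 5 *Pvalb* UMIs). These counts therefore do not compare like nuclei. Without subcluster 21 the log2 ratio was -0.32 (-0.43 to -0.22) for *Pvalb*, -0.14 for *Calb1* and 0.09 (-0.05 to 0.22) for *Calb2*.

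*Pvalb* was lower in HET in 17 of 20 cluster-subcluster combinations that had enough nuclei and UMIs in both libraries, beyond counting error in 7, and was higher beyond counting error in none. In neuron.1 it went from 21.9 to 15.01 CPM (log2 ratio -0.55, -0.69 to -0.40). None of the 3 genes passed 1.5-fold in that cluster, where 11.3% of 14638 genes did so downwards and 4.99% upwards. Of the 14638 genes, 12.9% had a lower ratio there than *Pvalb*. In neuron.2 it went from 29.8 to 13.1 (-1.18, -1.86 to -0.55), and in neuron.4 from 45.4 to 25.5 (-0.83, -1.23 to -0.43). Of the 5 groups where *Pvalb* stood above background, subcluster 18 of micro went from 116 to 65.6 (-0.83, -1.35 to -0.31) and subcluster 24 of neuron.1 from 62.3 to 34.1 (-0.87, -1.76 to -0.05). Subcluster 13 of neuron.3 went from 65.3 to 51.2, within counting error (-0.35, -0.75 to 0.05). Oligodendrocyte subcluster 8 was level (46.4 and 44.7, log2 ratio -0.05, -1.96 to 1.35). Subcluster 27 of neuron.3 had the higher value in HET, from 1 UMI in 13 WT nuclei (10.04 CPM, 0.254 to 56.0) to 73 UMIs in 100 HET nuclei (59.6 CPM, 46.7 to 74.9), and too few WT nuclei for a ratio. Nuclei with at least 3 *Pvalb* UMIs numbered 74 of 9259 in WT and 32 of 9022 in HET over all clusters. Of the 74, 10 were in neuron.9, which held 35 WT and 2 HET nuclei.

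The same direction was seen in oligodendrocytes, where no *Pvalb* was expected, from 30.6 to 20.7 CPM (-0.57, -0.88 to -0.25). The clusters astro (-0.23, -0.77 to 0.32), endo (0.05, -1.09 to 1.10) and fibro (0.62, -0.66 to 1.95) were within counting error. In the oligodendrocyte subcluster most evenly shared by the libraries, subcluster 2 with 768 WT and 789 HET nuclei, *Pvalb* was at 21.7 and 19.9 (-0.13, -0.68 to 0.42). Most of the WT excess lay in oligodendrocyte subcluster 8, with 825 WT and 35 HET nuclei and 46.4 CPM in WT. Without that subcluster the non-neuronal log2 ratio was -0.19 (-0.49 to 0.11). The 90 ribosomal protein genes measured moved in the same direction, with a median log2 ratio of -0.81 and 86 of 90 lower in HET. Ribosomal protein genes made up a median of 0.696% of the UMIs of a WT nucleus and 0.407% in HET. Leaving them out of the totals could therefore move the *Pvalb* log2 ratio only slightly, and it was -0.379, against -0.376 with them. Their part, and that of free RNA, in the *Pvalb* difference was not tested. In bulk or summed counts, fewer *Pvalb* nuclei and less *Pvalb* RNA per nucleus cannot be told apart.

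For *Calb1* the whole-library ratio and the ratios within the larger *Calb1* clusters that both libraries held ran in opposite directions. Neuron.6 had 120 WT and 5 HET nuclei and supplied 448 of the 1571 WT *Calb1* UMIs (28.5%), but 8 of 1334 in HET. Without neuron.6, *Calb1* was higher in HET, 16.4 against 20.1 CPM, a log2 ratio of 0.29 (0.18 to 0.41). Within neuron.1 it went from 12.2 to 16.4 (0.42, 0.26 to 0.59), within neuron.2 from 68.2 to 90.7 (0.41, 0.13 to 0.70), and within neuron.3 from 75.9 to 90.5, within counting error (0.25, -0.05 to 0.56). The glycinergic subcluster 13 of neuron.3 went from 80.8 to 114 (0.50, 0.19 to 0.82), and the glutamatergic subcluster 12 of neuron.2 from 93.1 to 142 (0.61, 0.27 to 0.95). Neuron.3 itself made up 143 WT and 319 HET nuclei, and its part of the library's *Calb1* went from 1.78 to 4.85 CPM. In the 5 HET nuclei of neuron.6 the level was 231 (99.6 to 455), against 268 in WT (244 to 294), so the level per UMI did not differ beyond counting error while the number of nuclei differed 120 to 5. Epend.1 went the other way, from 72.9 to 22.0 (-1.73, -3.45 to -0.35), on 31 and 5 UMIs.

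Much of the difference in neuron.1 came from 4 nuclei. These HET nuclei, all in subcluster 0, had 13, 24, 25 and 31 *Calb1* UMIs, 93 in all or 6.97% of the HET total. They were singled out after their values were seen, as the only nuclei with at least 2 UMIs each of *Pcp2* and *Car8*, genes of cerebellar Purkinje cells. In them *Car8* ranged from 43 to 60 UMIs, *Pcp2* from 6 to 17, and *Itpr1*, the IP3 receptor of the Purkinje cell calcium store, from 93 to 218. No WT nucleus met the rule. Without these nuclei *Calb1* in subcluster 0 of neuron.1 was 18.9 and 19.1 CPM (log2 ratio 0.01, -0.25 to 0.28, in place of 0.44), and in neuron.1 as a whole 12.2 and 14.1 (0.21, 0.04 to 0.38). Without both neuron.6 and these nuclei the ratio over all nuclei was 0.19 (0.07 to 0.31), still higher in HET.

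**Figure D2:**
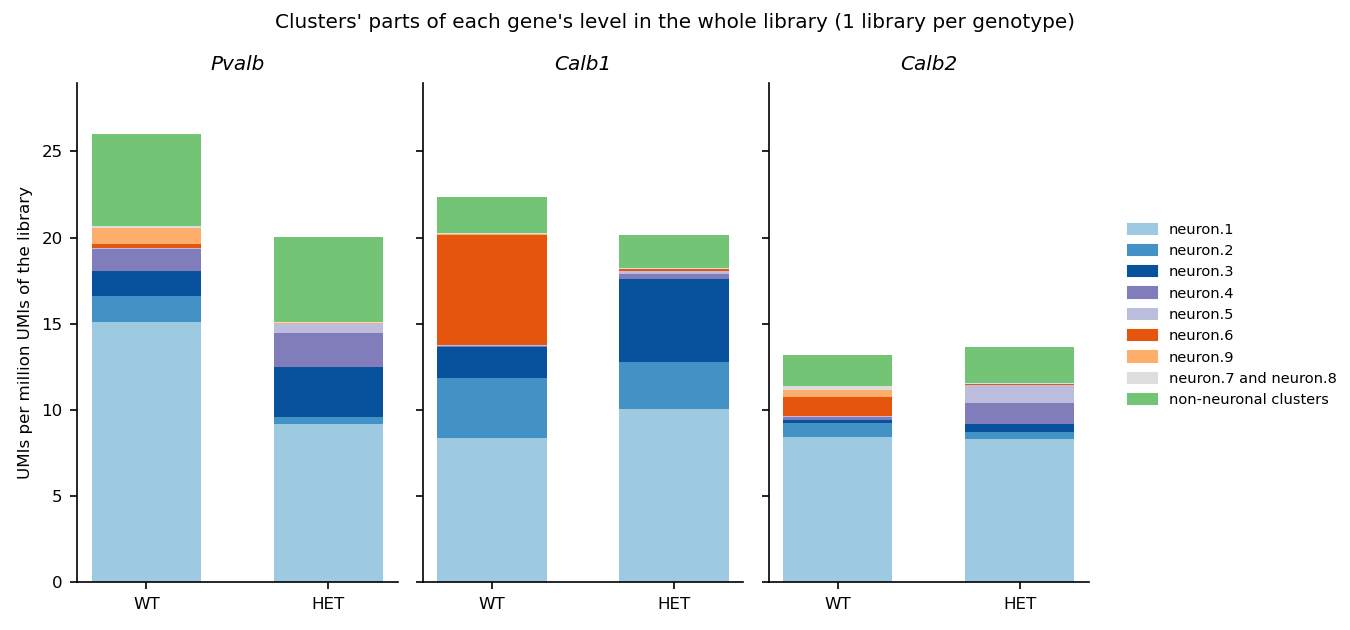
Parts of the whole-library level of each gene (CPM of that library) that came from each neuronal cluster and from non-neuronal clusters, stacked, for 1 WT and 1 HET library. The neuron.6 part of *Calb1* was 6.37 in WT and 0.121 in HET, while the neuron.3 part was 1.78 and 4.85.

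*Calb2* was higher in HET beyond counting error in 4 of 15 cluster-subcluster combinations and lower in 1. Neuron.6 held 79 of the 928 WT *Calb2* UMIs and 4 of the 903 in HET. Without it the log2 ratio was 0.20 (0.05 to 0.35) over neuronal clusters and 0.14 (-0.001 to 0.27) over all nuclei. In neuron.1 it was 12.3 in WT and 13.6 CPM in HET, within counting error, but it was higher in HET in its subcluster 0 (12.4 and 16.7, log2 ratio 0.43, 0.12 to 0.74) and its subcluster 3 (9.70 and 15.7, 0.69, 0.26 to 1.13). These levels lie close to the 11.6 of non-neuronal nuclei. In neuron.4 it went from 6.91 to 15.6, on 14 and 80 UMIs (1.17, 0.34 to 2.10). Neuron.5, which holds the unipolar brush cell-like and granule cell-like nuclei, had 42 WT and 332 HET nuclei, and its *Calb2* count was 2 in WT and 69 in HET. The unipolar brush cell-like nuclei were 6 WT with 2 *Calb2* UMIs and 37 HET with 27, or 113 (13.7 to 409) and 196 (129 to 286) CPM, whose intervals overlap. In granule cell-like nuclei 0 UMIs were found in WT, which allows up to 28.1 CPM, and 32.8 CPM in HET (21.6 to 47.7). Oligodendrocyte subcluster 6, with 39 WT nuclei, went the other way on 5 and 24 UMIs (-2.07, -3.49 to -0.33). With 1 library each, genotype and dissection cannot be told apart as sources of the unequal number of neuron.5 nuclei.

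**Figure D3:**
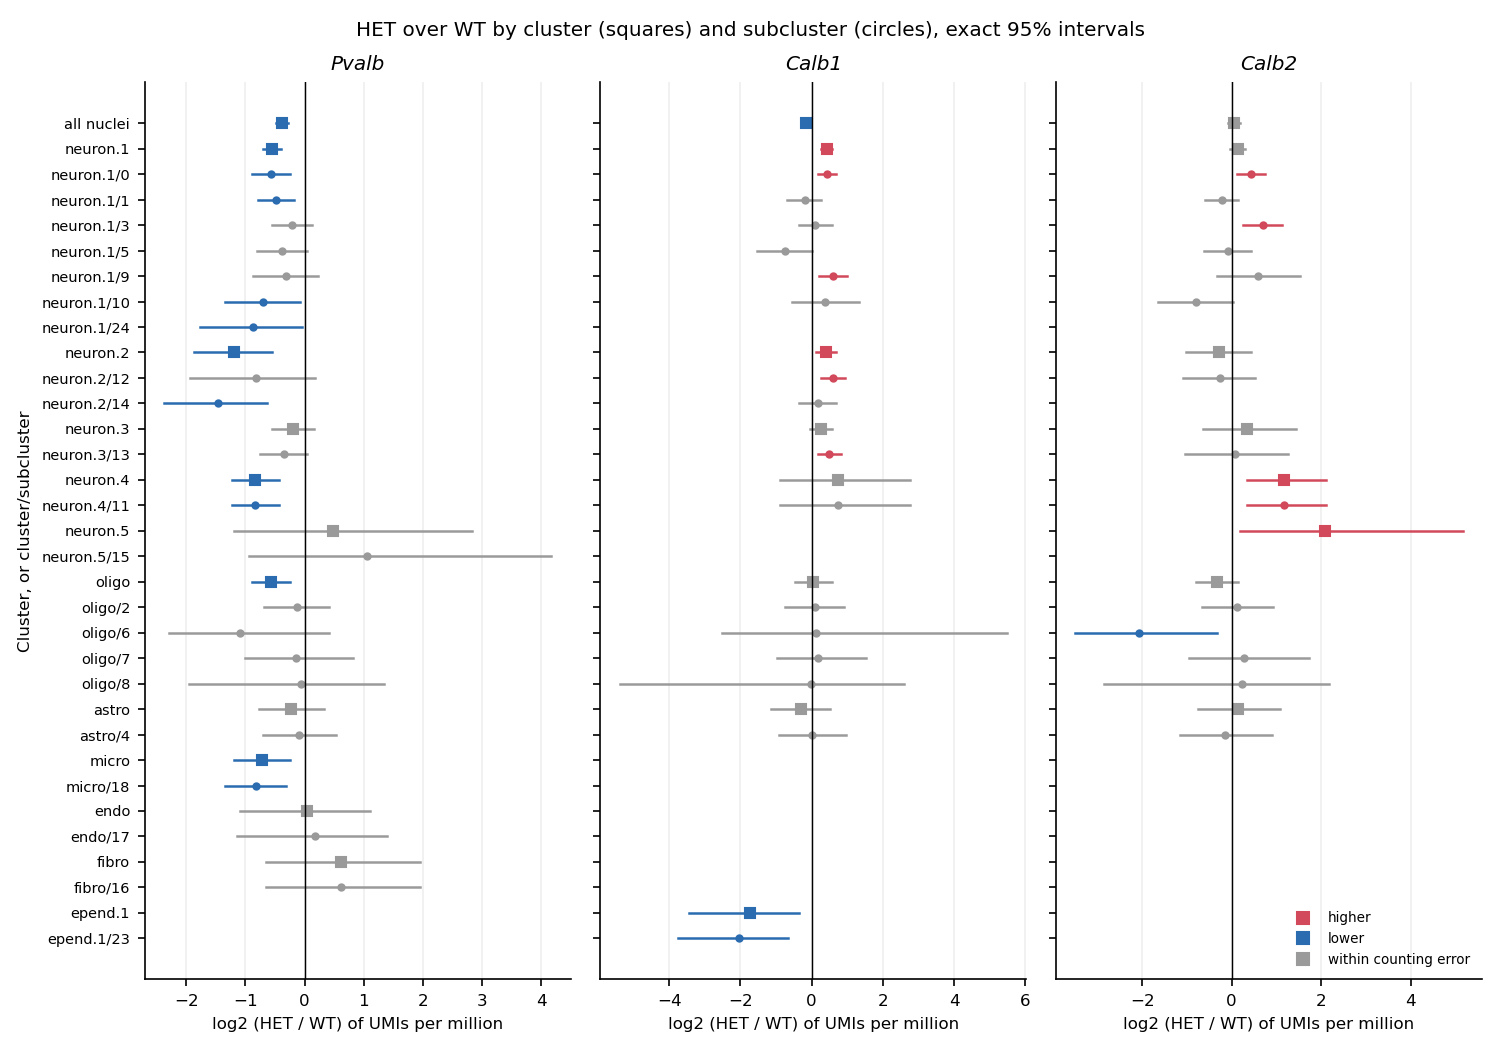
Log2 ratio of HET over WT (CPM) for each gene over all nuclei, in clusters (squares) and in subclusters (circles) that had 30 or more nuclei per library and 20 or more UMIs in total; lines are exact 95% intervals, red and blue mark intervals wholly above or below 0, and grey those that include 0. *Pvalb* had no red point, *Calb1* was blue over all nuclei (-0.15) but red in neuron.1 (0.42) and neuron.2 (0.41).

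The genes were next looked for in the same nuclei. Of 11511 neuronal nuclei, 3766 had a UMI of at least 1 of the 3 genes and 550 (4.78%) of at least 2, of which 32 had all 3. Since deeper nuclei give more of every gene, and free RNA adds single UMIs, this count was repeated at a fixed depth. At 1000 UMIs per nucleus, the expected number with at least 2 genes was 19.8 (0.172%). Within cluster-subcluster combinations, the number with both genes divided by the product of their separate shares was 1.09 for *Pvalb* with *Calb1*, 0.94 for *Pvalb* with *Calb2* and 1.01 for *Calb1* with *Calb2*. The expected shared numbers were 8.15, 6.77 and 5.48 nuclei, too few at this depth to show a modest excess or deficit.

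Among nuclei with at least 3 UMIs of a gene, 424 had 1 or more of the genes and 12 of them (2.83%, 1.47 to 4.89) at least 2. *Pvalb* and *Calb1* shared 5 nuclei, 5.38% of the *Pvalb* and 1.83% of the *Calb1* nuclei. *Pvalb* and *Calb2* shared 3, and *Calb1* and *Calb2* shared 6. Within subclusters the products of the shares gave 1.81, 0.768 and 4.199 nuclei for these pairs, without adjustment for depth. One WT nucleus had all 3, with 3, 4 and 5 UMIs. Of the 12 nuclei, 7 were WT and 5 HET. They included 2 of the HET nuclei with Purkinje cell genes, at 13 and 31 *Calb1* UMIs with 3 and 4 of *Pvalb*, and 3 WT nuclei of neuron.6 with *Calb1* and *Calb2*. Shared nuclei were deep, with a median of 19946 UMIs against 7926 for nuclei with none of the genes at this threshold, and 3 of them had 46064, 88520 and 90382. Their median deposited doublet score was 0.251, against 0.154 in nuclei with none. Doublets were not removed here, and their part in the 12 nuclei was not tested.

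**Figure D4:**
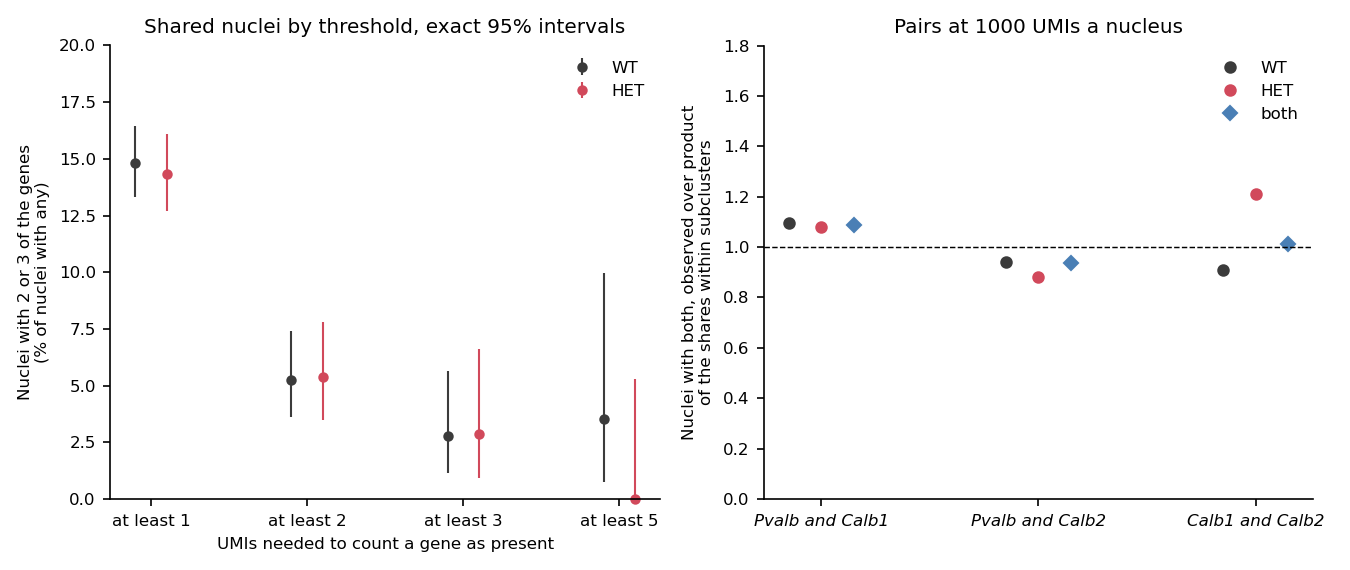
Left, share of neuronal nuclei with 2 or 3 of the genes among those with any (%), by the number of UMIs needed, for WT and HET with exact 95% intervals; right, nuclei with both genes of a pair over the product of the shares within subclusters at 1000 UMIs a nucleus. The share fell from 14.8% in WT and 14.3% in HET at 1 UMI to 2.79% and 2.89% at 3 UMIs, and the pooled pair ratios lay between 0.94 and 1.09.

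Nuclei with at least 3 UMIs of a gene were then compared with the other neuronal nuclei of the same subclusters, weighted to the same mix. A gene was called where the interval of its level in those nuclei lay wholly above or below the level in the others, and calls were counted over genes with at least 20 UMIs expected from the others. Such intervals cover counting error only, and not the spread between nuclei. In the 93 *Pvalb* nuclei 10.5% of 9656 genes were called higher and 15.1% lower. Of 12 fast-firing genes, 6 were higher and 1 was lower, with a median of 1.13-fold against 0.967-fold over all genes. They included the potassium channel genes *Kcnab2* (1.52-fold) and *Kcna1* (1.41-fold), while *Kcnc2* was lower (0.741-fold). *Scn1a*, the mutated gene, was at 526 CPM in the *Pvalb* nuclei and 482 in the others (1.09-fold, 1.02 to 1.16). Of 7 neurofilament and perineuronal net genes with enough UMIs, 5 were higher and 1 lower, with *Nefl* at 1.58-fold and *Nefh* at 1.53-fold. *Slc6a5* was 1.43-fold higher and *Gad2* 0.707-fold, while *Slc17a6* did not differ beyond counting error (0.966-fold, 0.802 to 1.15). Among nuclei with at least 10000 UMIs, 68 *Pvalb* nuclei had 5 of the 12 fast-firing genes higher and 1 lower, and 4 of the 7 neurofilament and net genes higher and 1 lower, beside 9.75% and 11.7% of 9022 genes. *Scn1a* was then no longer separate (1.04-fold, 0.974 to 1.12).

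In the 273 *Calb1* nuclei 9.94% of 12090 genes were called higher and 19.2% lower. The glycinergic gene *Slc6a5* was 1.65-fold higher (1.50 to 1.81), at 119 against 71.9 CPM, whereas the GABA-synthesising enzyme genes *Gad1* and *Gad2* were 0.417-fold and 0.341-fold. Both libraries showed these directions, with *Slc6a5* at 1.52-fold in WT and 1.79-fold in HET. Of 12 fast-firing genes 4 were higher and 2 lower, and of 9 neurofilament and net genes 5 were higher and 1 lower. The perineuronal net link protein gene *Hapln1* was 1.97-fold, *Nefh* 1.67-fold and *Nefm* 1.45-fold higher. *Scn1a* did not differ beyond counting error (0.983-fold, 0.932 to 1.04). Among nuclei with at least 10000 UMIs, 160 *Calb1* nuclei again had 5 of the 9 higher and 1 lower, and 6 of the 12 fast-firing genes higher and 3 lower, beside 11.2% of 11008 genes called higher and 19.2% called lower. There *Scn1a* was lower beyond counting error (0.938-fold, 0.883 to 0.995), but not without the 4 nuclei with Purkinje cell genes described above (0.954-fold, 0.897 to 1.01).

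In the 71 *Calb2* nuclei 8.28% of 8897 genes were called higher and 14.2% lower. Of 7 neurofilament and net genes with enough UMIs, 5 were higher and none lower, with *Nefh* at 1.96-fold and *Nefm* at 1.69-fold. Of 12 fast-firing genes 4 were higher, including *Kcna1* (1.57-fold), and 1 lower, and *Scn1a* was 0.991-fold (0.914 to 1.07). Among nuclei with at least 10000 UMIs, 49 *Calb2* nuclei had 4 of the 7 higher and none lower, and 3 of the 12 higher and 2 lower, beside 7.25% and 10.0% of 8175 genes, and *Hapln1* was no longer separate. The neurofilament genes *Nefl*, *Nefm* and *Nefh* were higher beyond counting error in the nuclei of each of the 3 genes, also among nuclei with at least 10000 UMIs. Most Purkinje cell genes had too few expected UMIs to be counted. Without the 4 nuclei none of the 6 listed was higher beyond counting error in the nuclei of any of the 3 genes. As *Pcp2* and *Car8* of that list defined the 4 nuclei, this followed in part from how they were chosen, and no conclusion is drawn from it.

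Of 47 listed genes of the wider EF-hand family, 44 had at least 200 UMIs, of which 8 were at least 1.5-fold lower in HET and none higher. Of all genes 12.7% were that much lower and 6.29% higher, so the count is near the background and is not read as a result about the family. The 8 were 5 S100 genes, *Calm2*, *Kcnip2* and *Cetn3*, and among genes with at least 1000 UMIs 3 remained. The median log2 ratio was -0.26, against -0.10 for all genes. Of the 4 genes in the group of calmodulin, the ubiquitous calcium sensor, *Calm2* had the lowest ratio (-0.89), from 272 to 147 CPM. All 7 S100 genes measured were below 0, 5 of them by at least 1.5-fold, led by *S100a13* (-0.98) and *S100a10* (-0.95). The 10 neuronal calcium sensors, which regulate channels and receptors, were divided 5 to 5, with a median of 0.02, from *Kcnip2* (-1.01) to *Ncald* (0.28). Among the 20 other EF-hand genes the highest were *Efhd1* (0.36) and *Caln1* (0.35), and *Cetn3* was the lowest (-0.70). *Pvalb* lay below the family median and *Calb1* and *Calb2* above it. Ribosomal protein genes, of which 86 of 90 were lower, moved with the calmodulin and S100 genes, and their part in these differences was not tested.

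**Figure D5:**
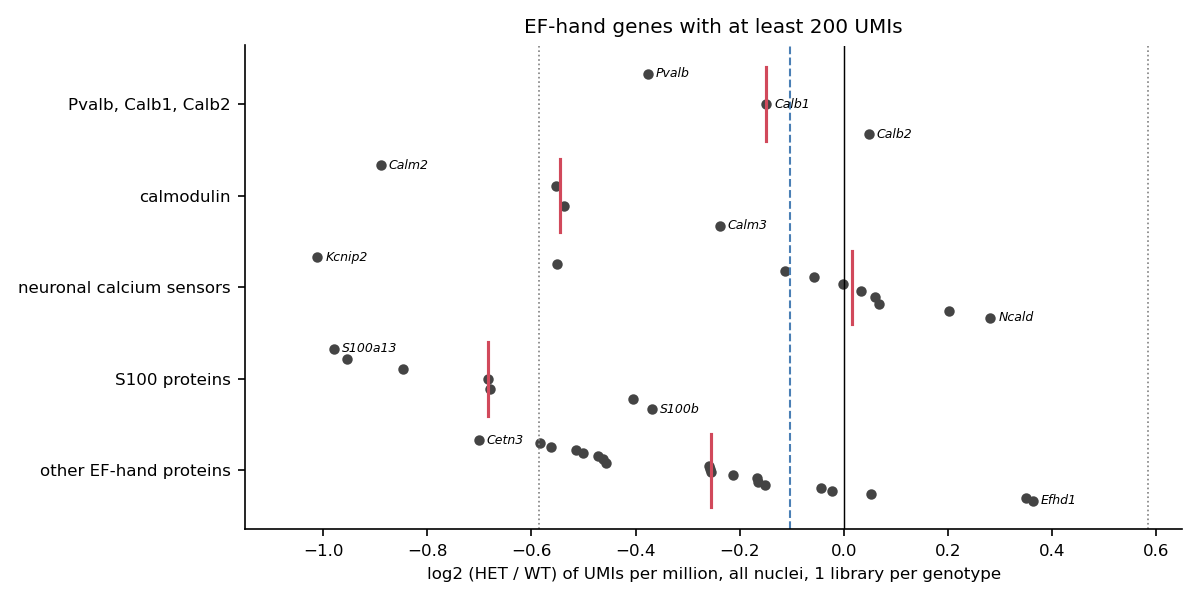
Log2 ratio of HET over WT (CPM, all nuclei, 1 library per genotype) of 44 EF-hand genes with at least 200 UMIs, by group; red bars are group medians, the dashed line the median of 16347 genes (-0.10) and dotted lines 1.5-fold. The S100 genes lay wholly below 0 with a median of -0.68, whereas neuronal calcium sensors centred on 0.02.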

How the data were processed

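Nuclei of 1 WT and 1 HET brainstem were sequenced with a 10x 3′ v3.1 kit. The authors aligned reads with Cell Ranger to mm10 and processed nuclei with Seurat 4.1, removing nuclei with few genes or a high mitochondrial share and a list of genes that includes mitochondrial and hemoglobin genes. The deposited table holds raw UMI counts per gene and nucleus. Deposited per-nucleus annotation gave clusters, subclusters, cell-type labels, a doublet score and the percent of UMIs from ribosomal protein genes, all calculated by the authors. Clusters were taken as deposited and no doublet was removed.

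Counts were summed per library, cluster or subcluster and divided by summed UMIs. Levels carry exact Poisson, shares exact Clopper-Pearson and ratios exact conditional binomial 95% intervals for counting error. Ratios needed 30 nuclei in each library and 20 UMIs. Thinning used the expected value of drawing 1000 UMIs without replacement. Lists were called at 1.5-fold among genes with at least 200 UMIs. Named genes were the 3 members, Scn1a, transmitter genes and at most 4 extremes per list. Calls in nuclei positive for a member needed 20 expected UMIs, and this minimum and the nuclei of at least 10000 UMIs were chosen after seeing the data. Likeness was Pearson's r of log2(CPM + 1) over units with at least 50 nuclei. Calculations used Python 3.11.15 with numpy 2.4.6, pandas 2.3.3 and scipy 1.17.1, and were tested on simulated data. Alternatives were other weights, depths, thresholds and left-out clusters or nuclei. Loci and sequences came from GENCODE vM21 on GRCm38. The members and lists were chosen with earlier results of these data known. Values of some listed genes are not reported here.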

Additional observations from a re-analysis of the deposited data

Results flagged for a closer look

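*Calb1* differed between clusters in the direction of its HET over WT ratio, beyond counting error on each side. The log2 ratio was 0.42 in neuron.1 and 0.41 in neuron.2, but -1.73 in the ependymal cluster epend.1, where it rested on 31 WT and 5 HET UMIs. The difference between these clusters was not tested, since each genotype had 1 library. The neuron.1 value was 0.21 without the 4 HET nuclei with Purkinje cell genes. In epend.1 the WT and HET nuclei numbered 129 and 45, and its subcluster 23 alone gave -2.03.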

How the results depend on the processing

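No paired analysis was possible because each genotype had 1 library and the groups share 1 replicate number. *Pvalb* stayed lower in HET under every alternative that gave a ratio, its log2 ratio being -0.54 with equal cluster weights, -0.27 with the median gene set to 0 and -0.49 as a mean over nuclei. *Calb1* turned from -0.15 to higher in HET with equal cluster weights (0.21), equal subcluster weights (0.22), without neuron.6 (0.29), and without neuron.6 and the Purkinje-gene nuclei (0.19), the last 2 chosen after seeing the data. As a mean over nuclei it was -0.26. In neuron.1 it was 0.21 without the Purkinje-gene nuclei. *Calb2* was -0.018 without the 5% highest doublet scores, -0.039 without neuron.5 and -0.006 as a mean over nuclei. It was 0.23 and 0.21 with equal cluster and subcluster weights, and 0.14 without neuron.6, a setting chosen after seeing the data. After subtracting the non-neuronal level it was 2.34, which left 0.717 CPM in WT and 3.63 in HET. The subtraction gave no ratio for *Pvalb*, as it left -5.65 CPM in WT and -2.95 CPM in HET.

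Shares of neuronal nuclei followed depth and threshold. For *Pvalb* the 2.36% became 4.36% at 2000 UMIs, 16.7% unthinned, and 3.41%, 0.808% and 0.104% at thresholds of 2, 3 and 5 UMIs. *Calb1* gave 4.31%, 10.9%, 4.18% and, at 5 UMIs, 1.09%. *Calb2* gave 2.93%, 10.1%, 2.07%, 0.617% and 0.165%. The share of positive nuclei with at least 2 genes went from 2.82% to 4.88% at 2000 UMIs, 14.6% unthinned and 5.31% at 2 UMIs. In the EF-hand list 3 genes were 1.5-fold lower among genes with at least 1000 UMIs, and the median was -0.15 with the median gene set to 0. Of the 5 genes most like each member, 2, 1 and 1 stayed with units of at least 100 nuclei and 1, 1 and 2 with Spearman's rho for *Pvalb*, *Calb1* and *Calb2*. Depth limits any statement on single UMIs of *Pvalb* and *Calb2*.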

Other observations

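Of 21 genes of the channels, pumps and exchangers that move calcium across membranes, all with at least 200 UMIs, 14 had a HET over WT log2 ratio above 0 and 7 below, with a median of 0.11. None was 1.5-fold higher and 2 were 1.5-fold lower, *Orai1* (-0.63) and *Itpr3* (-0.61), a plasma membrane calcium channel and an IP3 receptor, beside 6.29% and 12.7% of all genes. The highest was *Slc24a2*, a sodium/potassium/calcium exchanger (0.52), followed by the endoplasmic reticulum pump gene *Atp2a2* (0.29). Of 12 fast-firing genes, 6 were above 0 and 6 below, none by 1.5-fold, and of 9 neurofilament and net genes *Hapln1* (0.73) alone passed 1.5-fold.

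Over 32 cluster-subcluster units, the gene most like *Calb1* was *Cnih3*, an AMPA receptor auxiliary subunit gene (r = 0.76), followed by *Slc17a6* (r = 0.60). *Pvalb* was most like *Mpc1*, a mitochondrial pyruvate carrier gene (r = 0.69), with the sodium channel subunit gene *Scn4b* also among its 5 most alike (r = 0.65), and *Calb2* was most like *Bex1* (r = 0.65). Among the 3 genes r was 0.20 for *Pvalb* with *Calb1*, -0.08 for *Pvalb* with *Calb2* and 0.37 for *Calb1* with *Calb2*. Units share libraries and depth, and these are descriptions without a test.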
